A study of Homo sapiens with 10 samples.

Results

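The genes described are 7 genes of cyclin-dependent kinase (CDK) inhibitors, CDKN1A, CDKN1B, CDKN1C, CDKN2A, CDKN2B, CDKN2C and CDKN2D, together with ZBTB17, which encodes the zinc finger protein MIZ1, and GADD45A, a DNA damage gene. They were grouped as genes tied to repression by MYC with MIZ1, and are 9 of 20033 protein-coding genes on chromosomes 1 to 22, X and Y. A gene counted as bound when a peak list had a summit inside its span or within 5 kb of either end. Wild-type (WT) MYC had 5 summits at 3 of the 9 genes: 2 at CDKN2C, 1 at CDKN2D and 2 at GADD45A. The mutants 3A and 7A had none at any of them. Of all protein-coding genes 23.8% were bound by WT, 4.81% by 3A and 0.225% by 7A under the same rule, so all 3 counts lie near the shares over all genes.

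Binding was measured by ChIP-Rx, chromatin immunoprecipitation and sequencing with a reference genome from another species. The cells were U2OS, a human osteosarcoma line, with the endogenous MYC gene knocked out and a doxycycline-inducible, FLAG-tagged MYC put in, and mouse NIH3T3 cells made up 10% of the mix. All IPs used an antibody to FLAG. The 10 libraries form 6 groups: IPs of MYC-WT, MYC-3A and MYC-7A after 24 h of doxycycline at 1 µg/mL (2 libraries each), the IP of MYC-WT without doxycycline (2), and inputs of MYC-WT with and without doxycycline (1 each). The labels do not say which residues 3A and 7A change, whether the cells were single clones, or at what level each protein was made. Each induced protein has 1 deposited list, of 4749 peaks for WT, 845 for 3A and 64 for 7A, so replicates cannot be compared and the proteins are set side by side without a test. No list of the uninduced IPs was used here, so peaks could not be set against the level without doxycycline. RNA was not measured, so neither repression nor the level of any of these genes is seen here. The copy number of the loci in this line was not measured either.

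The proteins fall into families. The CIP/KIP inhibitors, p21 (CDKN1A), p27 (CDKN1B) and p57 (CDKN1C), bind complexes of cyclins with CDKs, CDK2 complexes above all. The INK4 inhibitors, p16 (CDKN2A), p15 (CDKN2B), p18 (CDKN2C) and p19 (CDKN2D), bind CDK4 and CDK6 and keep D-type cyclins from activating them. CDKN2A also encodes ARF, another growth inhibitor, from a separate start. MIZ1 binds near the starts of genes such as CDKN2B and CDKN1A and activates them. MYC is known to bind MIZ1 there, through the protein and not through an E-box, the DNA element that MYC and MAX read, and to switch its activity to repression. GADD45A is induced by DNA damage and other stress signals and is also known to be repressed by MYC.

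The sequences below are shown because 1 WT summit and parts of 2 other WT peaks fall in them. They are the 250 bases before a gene start on its own strand, from RefSeq (GRCh38.p14). The first lies before an internal start of CDKN2C, chr1:50968456-50968705, plus strand. Its capitals mark 11 bases centred on the WT summit, which is base 33. In the other sequences capitals mark an E-box, CACGTG, or its variant CACGCG, read on either strand (CACGCG reads CGCGTG on the other). The second lies before the first start of CDKN2C (chr1:50960495-50960744, plus strand) and the next before the start of FAF1, which runs the other way (chr1:50960268-50960517, minus strand). The last lies before the start of KRI1, the neighbour of CDKN2D (chr19:10566011-10566260, minus strand).
CDKN2C internal start: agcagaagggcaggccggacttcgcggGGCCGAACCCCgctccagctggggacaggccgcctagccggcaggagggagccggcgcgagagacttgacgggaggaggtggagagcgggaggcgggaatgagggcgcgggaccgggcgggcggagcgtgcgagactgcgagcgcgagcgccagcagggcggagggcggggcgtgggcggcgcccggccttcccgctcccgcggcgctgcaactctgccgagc
CDKN2C first start: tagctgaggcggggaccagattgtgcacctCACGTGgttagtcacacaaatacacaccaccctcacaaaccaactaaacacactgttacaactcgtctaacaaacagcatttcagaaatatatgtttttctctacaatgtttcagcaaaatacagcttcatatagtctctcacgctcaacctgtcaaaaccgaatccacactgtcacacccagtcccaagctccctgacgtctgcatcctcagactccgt
FAF1 start: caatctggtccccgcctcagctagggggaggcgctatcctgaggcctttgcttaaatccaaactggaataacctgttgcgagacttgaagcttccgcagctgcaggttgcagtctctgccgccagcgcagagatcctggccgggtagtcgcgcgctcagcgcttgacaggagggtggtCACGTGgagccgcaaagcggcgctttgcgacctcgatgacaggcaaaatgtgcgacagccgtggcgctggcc
KRI1 start: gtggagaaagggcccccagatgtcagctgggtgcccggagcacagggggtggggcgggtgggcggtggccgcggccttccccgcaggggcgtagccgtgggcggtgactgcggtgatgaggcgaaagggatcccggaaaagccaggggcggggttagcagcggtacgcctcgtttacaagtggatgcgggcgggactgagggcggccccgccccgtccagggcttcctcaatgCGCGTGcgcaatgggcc

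CDKN2C, the gene of p18, had 2 WT peaks. The peak at chr1:50968054-50968757 lay inside the gene, with its summit 218 bp before the internal start printed first above. The authors' fold enrichment, the ratio of the IP signal to the local background at the summit, was 3.21, with a −log10 q, the authors' p-value adjusted over the genome, of 7.71, and 5.69% of WT peaks had a lower fold. The other peak, chr1:50959630-50960598, had a fold of 3.99 and a −log10 q of 14.5, with 20.7% of the list below it. Its summit was 599 bp before the first start of CDKN2C and 121 bp inside FAF1, a gene of a ubiquitin-binding adaptor protein that starts 478 bp away and is read in the opposite direction. That peak ended before the span of CDKN2C began. It covered the CACGTG 72 bp before the FAF1 start and the CACGTG 220 bp before the CDKN2C start, 190 and 381 bp from the summit.

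CDKN2D, the gene of p19, had 1 WT peak in its window, at chr19:10565164-10566057. Its fold of 4.93 was the highest of the 5 and its −log10 q was 18.5, and 45.4% of WT peaks had a lower fold. The summit lay 543 bp beyond the gene's 3′ end and 3062 bp from its start. It was 93 bp inside KRI1, a ribosome biogenesis gene on the same strand, whose start is 2969 bp from that of CDKN2D. The peak covered the CACGCG element 17 bp before the KRI1 start and did not reach the span of CDKN2D. No WT peak overlapped the 300-base window at the start of CDKN2D itself.

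GADD45A had 2 WT peaks inside its span of 3134 bp, and no other gene lay within 5 kb of either summit. The first, chr1:67685135-67685570, had a fold of 2.69 and a −log10 q of 7.56, with its summit 67 bp inside the lower end of the span. The second, chr1:67686064-67687044, had a fold of 2.52 and a −log10 q of 5.73, with its summit 1160 bp inside that end. Only 1.62% and 0.969% of WT peaks had lower folds, so both are among the weakest of the WT list. Of the 5 summits, then, 3 were inside a listed gene (the internal start of CDKN2C and both in GADD45A) and 2 were just inside a neighbour's start.

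**Figure D1:**
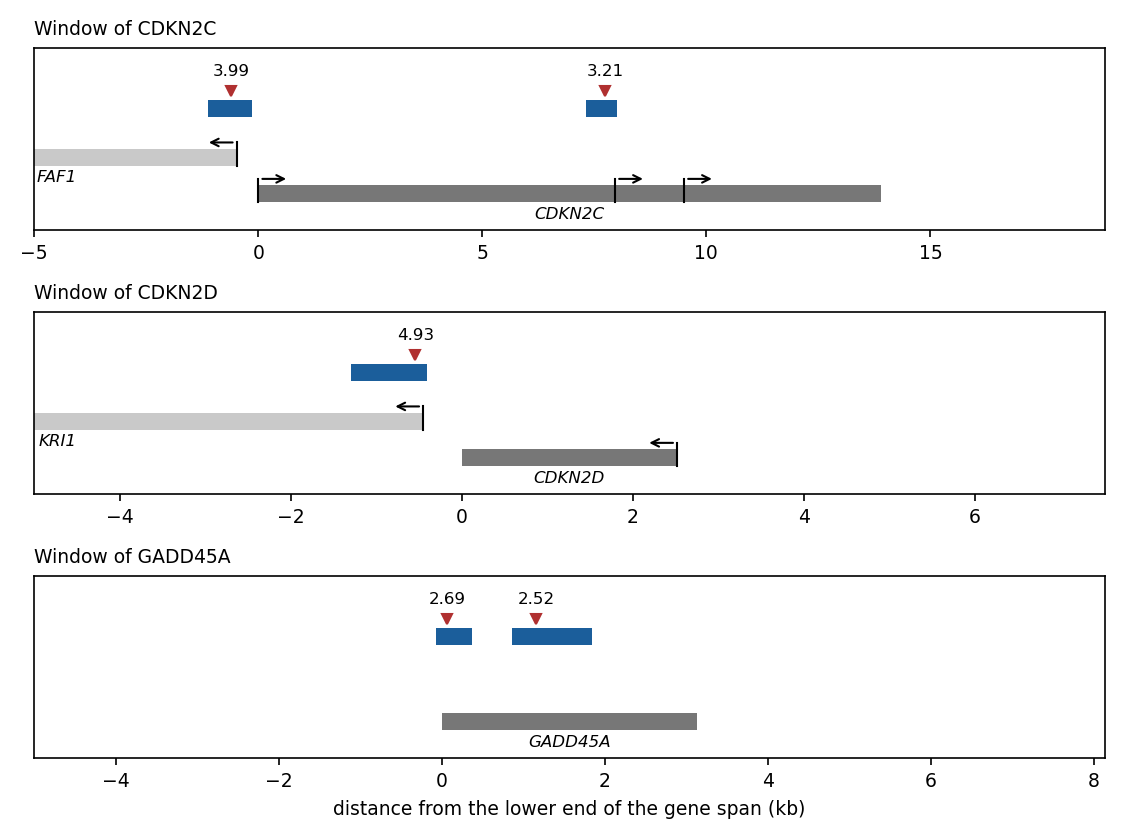
WT peaks (blue bars, with the summit as a red triangle and the fold above) and gene spans around CDKN2C, CDKN2D and GADD45A, by distance in kb from the lower end of each span, 5 kb shown on either side. Arrows mark listed starts and their direction (GADD45A has none drawn); the peaks with folds of 3.99 and 4.93 sit over the starts of FAF1 and KRI1, outside CDKN2C and CDKN2D.

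All 5 folds lay below the WT list's median of 5.15, from 2.52 to 4.93, with widths of 436 to 981 bp against a median of 790 bp. The reads behind them were recovered from the authors' fold and p. At CDKN2C the IP pileup, the number of reads over the summit, was 55 over a local background of 13.1 for the peak at FAF1, and 41 over 12.1 at the internal start. At CDKN2D it was 54 over 10.2. At GADD45A it was 55 over 19.8 and 49 over 18.9. The pileup of the first GADD45A peak thus equalled that of the CDKN2C peak at FAF1, and its lower fold went with a higher local background. The medians over all WT peaks were a pileup of 72 and a background of 13.1.

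**Figure D2:**
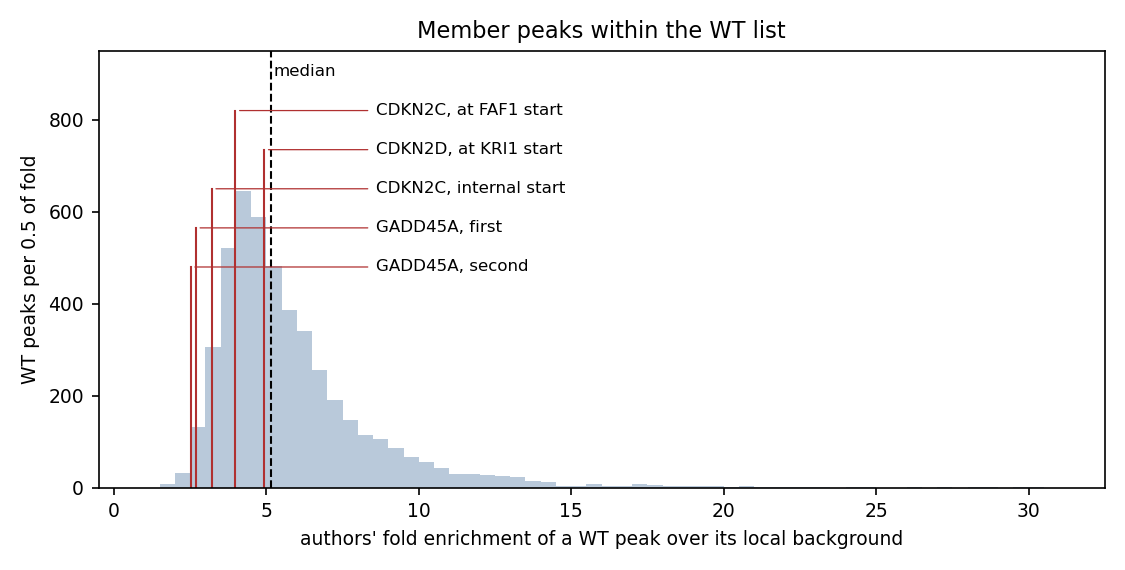
Histogram of the authors' fold enrichment over all 4749 WT peaks, in bins of 0.5, with the 5 peaks at CDKN2C, CDKN2D and GADD45A as red lines. All 5, from 2.52 to 4.93, lie left of the dashed median of 5.15.

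**Figure D3:**
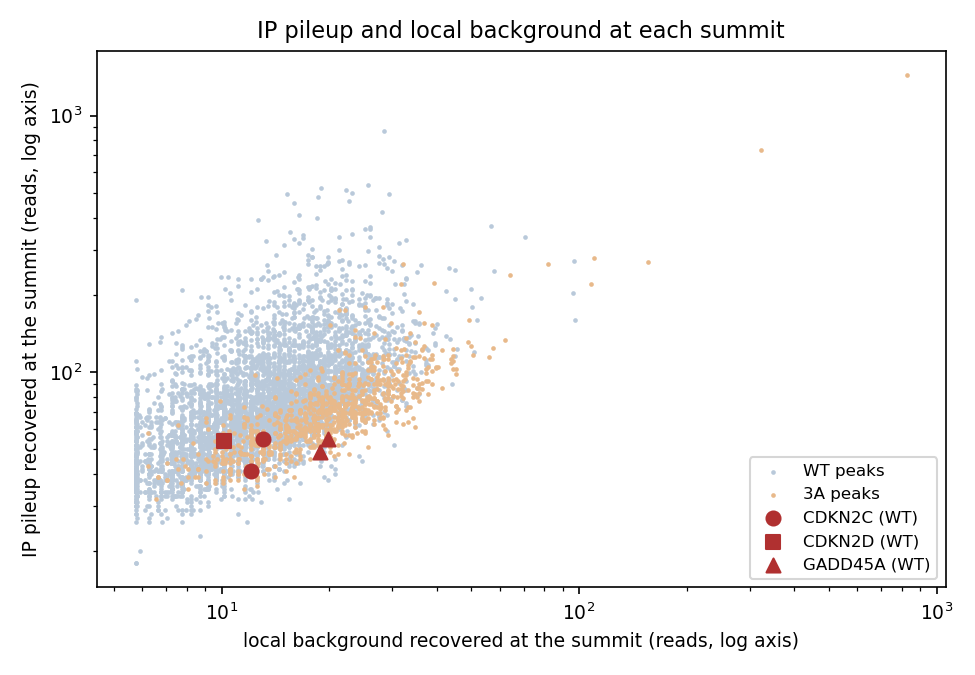
IP pileup against local background recovered at each summit, both on log axes, for WT peaks (blue-grey) and 3A peaks (orange), with the WT peaks at CDKN2C, CDKN2D and GADD45A in red. The GADD45A peaks, at 55 over 19.8 and 49 over 18.9, lie at the lower edge of the WT cloud; CDKN2C and CDKN2D lie at lower backgrounds.

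No 3A or 7A peak overlapped any of the 5 WT peaks. The 7A list held only 64 peaks against 4749 for WT, and the share of all WT peaks it overlapped was not computed. Of all WT peaks 15.1% were overlapped by a 3A peak, and of the 2121 WT peaks with folds between 2.52 and 4.93 the share was 9.19%, so 0 of 5 is near the share for WT peaks of this strength. The nearest 3A summit was 1723544 bp from CDKN2C, 254912 bp from GADD45A, at SERBP1, and 132515 bp from CDKN2D, inside QTRT1. For 7A it was 8024137 bp from CDKN2C, inside the glucose transporter gene SLC2A1, 17919102 bp from GADD45A and 8818987 bp from CDKN2D. The smallest pileup of any 3A peak was 32 and of the 63 recovered 7A peaks 39, against 18 in the WT list. The WT pileups of 41 to 55 lie above those lowest values, but whether a pileup is called also depends on its local background. The median background was 19.6 over 3A peaks and 18.2 over those 63 7A peaks, against 13.1 over WT peaks. Depth and scaling may also differ between lists, and how much signal the mutants had at these 5 places is not seen in the lists.

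The other 6 genes were more than 50 kb from every summit of the 3 lists. Widening the window to 50 kb therefore left the count at 3 of 9, where 42.8% of all protein-coding genes had a WT summit within that distance. CDKN1B, the gene of p27, had the nearest, 64570 bp away inside APOLD1 with a WT fold of 10.9 and no 3A peak. ZBTB17 itself, the gene of MIZ1, was 92133 bp from a WT summit inside SPEN (fold 3.19) and 170437 bp from one inside EPHA2 (3.18). CDKN1A, the gene of p21, was 187366 bp from a WT summit with a fold of 7.42 where PPIL1 and C6orf89 overlap. A 3A peak with a fold of 2.88 in its own list overlapped that peak, which made CDKN1A the one of the 6 whose nearest WT and 3A summits were at the same place. CDKN1C, the gene of p57, was the farthest from any WT summit, at 493346 bp from one inside ZNF195 (fold 5.90), and 18.1% of protein-coding genes lay at least as far from one. For CDKN1B, CDKN1A and ZBTB17 that share was 53.2%, 34.5% and 47.3%.

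CDKN2A and CDKN2B lie beside each other on chromosome 9, with 7578 bp between their spans. Their nearest WT summit was the same one, with a fold of 6.14, inside MTAP, a methionine salvage gene. It was 164906 bp from CDKN2A and 200057 bp from CDKN2B. On the other side the next WT summit was 3668225 bp beyond CDKN2B, inside TUSC1. The stretch between these 2 summits measured 3.87 Mb and held 5 protein-coding genes, where the median distance between neighbouring WT summits was 176 kb and 133 of 4726 such stretches were at least as long. By distance to the nearest WT summit, 36.8% of protein-coding genes lay at least as far from one as CDKN2A and 33.5% as CDKN2B. The 3A list had no summit within 11281400 bp of the pair, and the 7A list had no peak on chromosome 9.

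**Figure D4:**
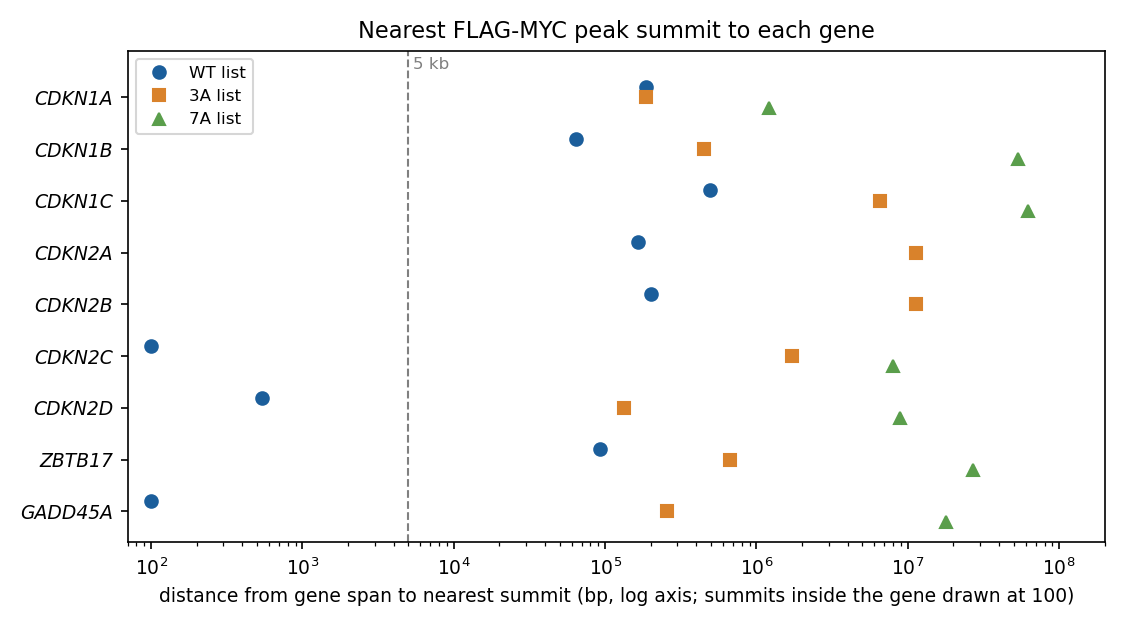
Distance in bp, on a log axis, from each gene's span to the nearest summit of the WT (circles), 3A (squares) and 7A (triangles) lists; summits inside a gene are drawn at 100 bp and the dashed line is 5 kb. The WT circles of CDKN2C, GADD45A and CDKN2D alone lie left of the line, and no 3A or 7A symbol does; CDKN2A and CDKN2B have no 7A symbol because that list has no peak on their chromosome.

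RefSeq's promoter table gave 9 starts for 6 of the genes. CDKN1C, ZBTB17 and GADD45A had no entry. The start of CDKN2B is shown because it is the best-known place where MYC meets MIZ1, and it had no peak. These are the 250 bases before it, chr9:22009306-22009555, minus strand, followed by those before the start of CDKN1A, chr6:36678464-36678713, plus strand, with CACGCG in capitals.
CDKN2B start: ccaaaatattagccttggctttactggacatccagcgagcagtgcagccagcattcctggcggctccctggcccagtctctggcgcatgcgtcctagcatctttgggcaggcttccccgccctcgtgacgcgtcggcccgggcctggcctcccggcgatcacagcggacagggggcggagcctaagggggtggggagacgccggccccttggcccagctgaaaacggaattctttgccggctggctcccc
CDKN1A start: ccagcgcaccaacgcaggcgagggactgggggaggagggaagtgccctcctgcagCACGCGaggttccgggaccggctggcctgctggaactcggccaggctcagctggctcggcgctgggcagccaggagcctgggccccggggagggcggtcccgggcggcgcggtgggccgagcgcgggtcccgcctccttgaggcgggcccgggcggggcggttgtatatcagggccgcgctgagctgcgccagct

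The E-box letters were searched over 300 bases at each of the 9 starts, the 250 before the start and the 50 after it. CACGTG was found before 2 of the 9 starts, both of CDKN2C: the first start, at the peak shared with FAF1, and the last, where it lay 69 bp before the start and outside any WT peak. The internal CDKN2C start that held a summit had neither CACGTG nor CACGCG in its window. CACGCG was found before the starts of CDKN1A (195 bp), CDKN1B (185 bp) and the p16 start of CDKN2A (29 bp), none under a WT peak. The starts of CDKN2B, CDKN2D and the ARF start of CDKN2A had neither. CACGTG was in 7.26% of all 35116 listed windows and CACGCG in 11.4%. Over the 4242 windows overlapped by a WT peak the shares were 16.9% and 28.7%, and over the 1591 with a WT summit 27.5% and 38.2%. No match says only that those letters are not in that window.

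The 6 starts of CDKN1A, CDKN1B, CDKN2A, CDKN2B and CDKN2D, none with a peak, held 25 to 36 CpG, above the median of all windows. The windows of CDKN1A, CDKN1B, CDKN2B and CDKN2D and both of CDKN2A held 29, 29, 25, 36, 28 and 26 CpG, and the internal CDKN2C start with a summit held 37. The median was 14 over all windows and 32 over those with a WT summit. The first and last CDKN2C starts held 8 and 11.

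Genes of cyclins and CDKs were counted by the same rule. The list also holds genes of the complex that activates CDKs, so not all of it is made of targets of the inhibitors. Of these 15 genes, 10 had a WT summit (66.7%, against 23.8% of all protein-coding genes). A 3A summit was at 2 of them (13.3%, against 4.81%). Among them were the D-type cyclin gene CCND2, with a WT fold of 12.7 at a summit 1285 bp outside the gene and a 3A fold of 3.79 in its own list, the cyclin E gene CCNE2 (7.45), CDK4, with 6.69 in WT and 3.12 in 3A, and CDK6 (6.19). CDK4 and CDK6 are the kinases that the INK4 proteins bind. The median of each bound gene's highest WT fold was 5.41 for these 10 genes, 3.99 for CDKN2C, CDKN2D and GADD45A, and 5.32 for all bound protein-coding genes. The CDKN2C and CDKN2D values behind the 3.99 are those of the summits just inside FAF1 and KRI1. These are counts and medians without a test, and the genes were chosen with earlier results of these data known.

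Genes downstream of the kinases and of inhibitor breakdown were bound in part. Of 13 RB and E2F genes, 6 had a WT summit (46.2%, against 23.8% of all protein-coding genes). Highest were E2F5 (fold 8.47), E2F6 (7.25), E2F3 (4.43) and E2F1 (3.91). RBL1, the gene of the RB relative p107, had a WT fold of 3.18 with a −log10 q of 18. It had the only 3A summit of the list (2.99), which is 7.69% of it. Of 10 genes that act in the turnover of CDK inhibitors or their partners, such as the SKP2 ligase that breaks down p27, 5 had a WT summit (50%). They were CKS2 (7.90), FBXO31 (5.71), the replication clamp gene PCNA (5.04), CUL1, the ligase scaffold (4.05), and CKS1B, the SKP2 cofactor (3.57). CKS2 (3.20) and PCNA (4.27) also had a 3A summit (20% of the list, against 4.81% of all protein-coding genes). The WT summits of CKS2, PCNA and CKS1B lay 1664, 1906 and 4051 bp outside the gene spans. The 3A summits lay 1650 bp outside CKS2 and 1948 bp outside PCNA. Whether these summits belong to neighbouring genes was not tested. With a margin of 1 kb 2 of the 10 were bound, where the share over all protein-coding genes was 21.2%.

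Binding of MIZ1 itself was not measured in these IPs. MYC had no summit at ZBTB17. WT MYC had one at 6 of 11 genes of proteins known to bind or act with MIZ1 (54.5%, against 23.8% of all protein-coding genes). NPM1, the nucleophosmin gene, had a WT fold of 20.1 and the only 3A summit of the list (6.20). That is 9.09% of the list, against 4.81% of all protein-coding genes. MAX (8.69), SMAD2 (8.18) and SMAD3 (5.80) followed. The genes HUWE1, a ubiquitin ligase that acts on MIZ1 and MYC (4.05), and HCFC1 (4.42) had lower folds. Of 10 genes of other zinc finger proteins with the same type of N-terminal domain, 3 had a WT summit (30%, near the share of all genes). They were ZBTB49 (9.39), ZBTB7B (8.01) and ZBTB2 (4.19), and none of the 10 had a 3A summit.

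Of 13 other genes known as repressed by MYC, 4 had a WT summit (30.8%, near the 23.8% of all genes). None had a 3A summit, where the share over all genes was 4.81%. The 4 were the apoptosis inhibitor gene BCL2 (6.30), the cyclin D1 gene CCND1 (5.10 for the higher of 2 summits), the metal transporter gene SLC11A1 (3.83) and NDRG2 (3.21). CCND1 also counts among the cyclins above. VAMP4, a MIZ1 target, had no summit. Of 14 further genes of the GADD45 family and the stress response 2 were bound by WT (14.3%, against 23.8% of all genes), PLK3 (10.9) and BAX (7.67), both with higher folds than GADD45A. PLK3 also had a 3A summit (3.43), which is 7.14% of that list. GADD45B and GADD45G were not bound. No gene of any of these lists had a 7A summit, where the share over all protein-coding genes was 0.225%.

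**Figure D5:**
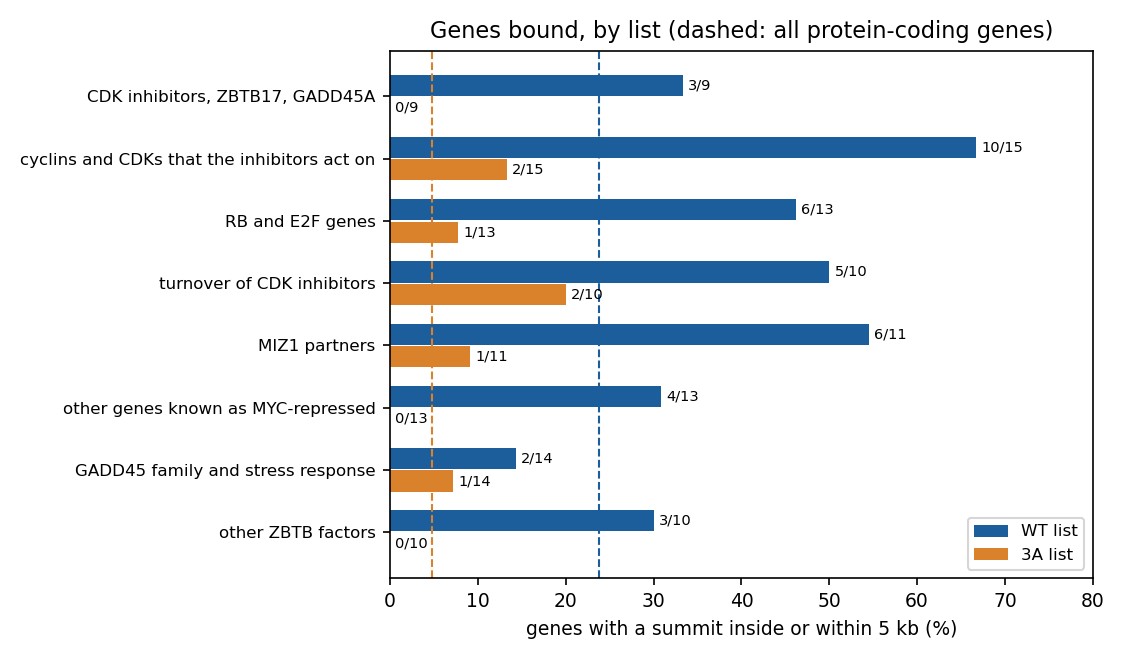
Share of genes in each list, in percent, with a WT (blue) or 3A (orange) summit inside or within 5 kb, with the counts beside each bar; dashed lines give the shares over all protein-coding genes, 23.8% and 4.81%. The cyclin and CDK bar (10 of 15), which also counts genes of the complex that activates CDKs, is the longest WT bar. The CDK inhibitors, ZBTB17 and GADD45A (3 of 9) lie near the line.

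Genes with the same pattern, a WT summit with no 3A or 7A summit, numbered 3870 including CDKN2C, CDKN2D and GADD45A. Likeness was the difference in each gene's highest WT fold. Taken in alphabetical order among ties, the nearest to CDKN2C were FAF1, through the shared summit, and KIAA1217, and the nearest to CDKN2D were KRI1, likewise, and EFHD2. Nearest to GADD45A were PIGB and PIGBOS1. All 6 had a difference of 0 at the precision of the deposited values.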

How the data were processed

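FLAG-tagged MYC binding was read from 3 peak lists, 1 per induced protein. Per the submitters' processing notes, cutadapt, Bowtie2, SAMtools, Picard and MACS2 were used, with builds hg19, mm10 and hg38 named without roles. The sources used here do not say how 2 IP libraries became 1 list, which control was used or how mouse reads entered. The authors deposited for each peak a fold over local background (a ratio), a −log10 p-value, a −log10 q-value and a score, which was not used. Read totals were not used here, so depth is unknown. Folds were not compared as levels between lists.

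Of WT summits 60.7% lay within 1 kb of a RefSeq start on GRCh38.p14, against 3.35% and 2.99% after shifts of 100 and 500 kb, so hg38 coordinates were used, counted from 1. Gene spans came from the same assembly. They give no exons, so exon, intron and UTR classes were not analysed here. Peaks overlapped if they shared at least 1 bp. Pileup and background were recovered from p as an upper Poisson tail and the fold with 1 added to both terms. The result fell within 0.05 of the step between neighbouring whole pileups at every WT peak (4749) and 3A peak (845), and at 63 of the 64 7A peaks. On peaks simulated with the same formulas 1000 of 1000 pileups returned, which checks the code and not the formulas. No significance test was made. The genes and the 7 other gene lists were chosen with earlier results of these data known. 1 gene of the MIZ1 partner list is not reported here. All 9 genes are named; from the other lists, up to 4 bound genes with the highest WT fold and every gene with a 3A summit. The other genes named from those lists (CKS1B, HCFC1, HUWE1, VAMP4, GADD45B and GADD45G) were named after their values were seen, where a list's count was small. Alternatives covered the window, the q and fold minimum, the overlap rule and shared summits. Python 3.11.15, numpy 2.4.6, pandas 2.3.3, scipy 1.17.1 and matplotlib 3.10.9 were used.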

Additional observations from a re-analysis of the deposited data

How the results depend on the processing

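The count of 3 WT-bound genes was the same with windows of 1, 2, 10 and 50 kb, within 1 kb of a span end only, with peaks of −log10 q 5 or more, and with peak intervals in place of summits. The share over all protein-coding genes moved meanwhile from 16.7% within 1 kb of a span end to 42.8% at 50 kb, so 3 of 9 went from above that share to below it. The count was 2 with −log10 q 10 or more (GADD45A lost, 22.6% of all genes) and 1 (CDKN2D) at a fold of at least 4 (19.2%). By listed starts alone it was 2 of the 6 with a start, which leaves out GADD45A (20.8% of genes with a start). Giving each summit to its nearest protein-coding gene only, an alternative added once the data had been seen, left 2 genes (19.4% of all genes), since the CDKN2D summit went to KRI1. The 5 WT summits became 3 within 1 kb of a span end, 3 by listed starts, 3 by nearest gene, 2 with −log10 q 10 or more and 1 at a fold of at least 4. The counts of 0 for 3A, for 7A and for overlap with 3A stayed 0 under every alternative run. Among the other lists, WT-bound genes of inhibitor turnover fell from 5 to 2 with a window of 1 kb (21.2% of all genes). No paired analysis was possible because each protein has 1 list, and leaving out a library was not possible for the same reason. Without read totals, a place with no peak is not shown to be unbound.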
